A study of Homo sapiens with 4 samples.

Results

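The Iroquois homeobox genes are 6 protein-coding genes in 2 clusters, with *IRX4*, *IRX2*, and *IRX1* on chromosome 5 and *IRX3*, *IRX5*, and *IRX6* on chromosome 16. They were taken by name from the 20033 protein-coding genes of GENCODE 44 (hg38), and all 6 were found. For each gene, the peaks that overlapped its body plus 50 kb on each side were counted, along with the promoter peaks, whose centre lay from 1000 bp upstream to 100 bp downstream of any of its transcription start sites.

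Iroquois genes encode transcription factors of the TALE homeobox class, which carry an extended homeodomain and pattern the early embryo. *IRX4* is best known from the ventricles of the heart, *IRX3* and *IRX5* from the heart, the limb, and the spinal cord, and *IRX1* and *IRX2* from lung, limb, and brain. As with other developmental homeobox genes, their CpG-rich promoters are typical targets of Polycomb complexes in cells where the genes are silent, and long-range enhancers lie in the wide gene-poor intervals around them. SS18::SSX, the onco-fusion of synovial sarcoma (SS), is a subunit of SWI/SNF chromatin-remodeling complexes, and WDR5 is a shared subunit of the KMT2/MLL complexes that methylate histone H3 at lysine 4.

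CUT&RUN peaks came as 4 lists from HSSY II, an established human SS18::SSX1-positive SS cell line, with the libraries SS18::SSX DMSO, SS18::SSX MS67, WDR5 DMSO, and WDR5 MS67. CUT&RUN releases and sequences the chromatin fragments around an antibody-bound protein. All cells were treated for 4 days, the controls with DMSO (the solvent) and the others with 2.5 μM MS67, a PROTAC that directs WDR5 to the VHL ubiquitin ligase for degradation. The comparisons address where the 2 proteins lay at these genes and which of those peaks were still called after WDR5 degradation. Every condition had 1 library from 1 cell line and no inactive analog of MS67 was analysed here, so no difference has a replicate check, no p-value was computed, and the 95% intervals (exact Clopper-Pearson) cover counting error only. Peak lists hold no expression values, so neither the identity of the cells nor the activity of the Iroquois genes could be checked.

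The lists held 15141 peaks for SS18::SSX with DMSO, 1175 for SS18::SSX with MS67, 35605 for WDR5 with DMSO, and 14123 for WDR5 with MS67. Depth was recovered from each peak's fold and p-value, which together fix the number of fragments at its summit and the local background around it. Genome-wide coverage was 0.541, 0.737, 0.368, and 0.168 fragments per bp in the same order, so the MS67 library was the deeper one for SS18::SSX (ratio 1.36) and the shallower one for WDR5 (ratio 0.458). Where libraries are set side by side, summit and background are given as multiples of that coverage. This scaling uses no spike-in, so ratios between treatments in multiples of coverage do not measure a change in the amount bound. Mouse spike-in cells (50000 per sample) were added in the study for such comparisons, but the peak lists hold no spike-in counts.

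In the DMSO-treated cells, SS18::SSX peaks lay around all 6 Iroquois genes, but very unevenly, with 51 peaks around the chromosome 5 genes and 9 around the chromosome 16 genes. *IRX4* had 33 peaks within its window and *IRX2* had 14. *IRX3* had 5, *IRX1* had 4, and *IRX5* and *IRX6* had 2 each. Of all protein-coding genes, 47.6% had at least 1 such peak, so its presence at all 6 genes says less than the number of peaks. The median protein-coding gene had 0 peaks and the mean was 1.57, and only 46 genes had more than *IRX4* and 331 more than *IRX2*, while 1231 had more than *IRX3*. The share of genes with fewer peaks was 99.8% for *IRX4*, 98.2% for *IRX2*, 88.6% for *IRX1*, and 73.4% for *IRX5* and *IRX6*. The Iroquois gene was the only protein-coding gene with a start site in each window. Window length follows gene length and was not matched in any share or rank of genes given here. *IRX4* alone gave 33 of the 60 peaks, and without it 27 remained.

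**Figure D1:**
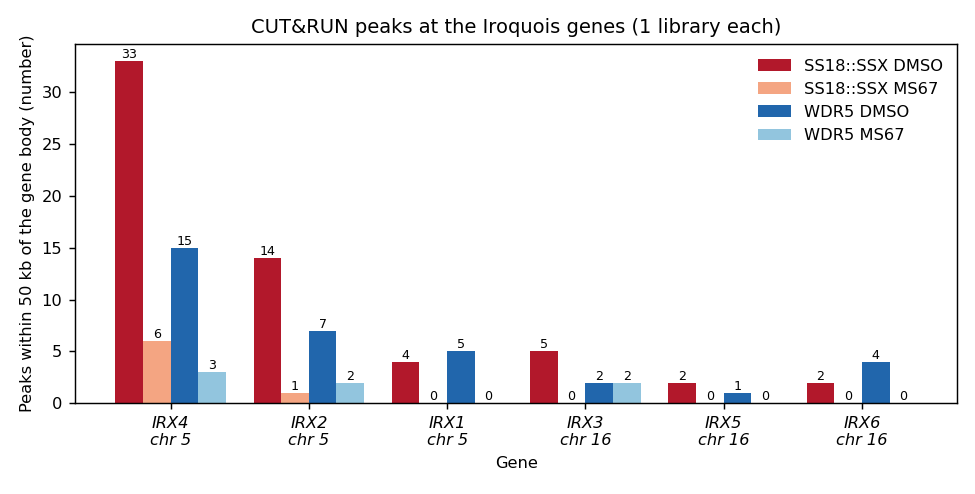
Bars give the number of peaks that overlap each Iroquois gene body plus 50 kb on each side in the 4 lists (1 library each, no error bars). *IRX4* has 33 SS18::SSX peaks with DMSO and 6 with MS67, and no chromosome 16 gene has an SS18::SSX peak with MS67.

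**Figure D2:**
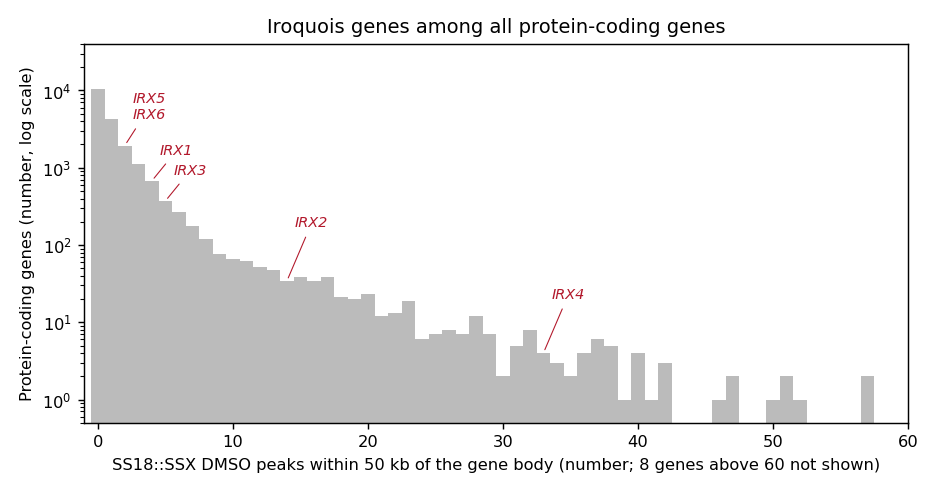
The histogram gives the number of protein-coding genes (log axis) by the number of SS18::SSX DMSO peaks within 50 kb of the gene body, with the bins of the Iroquois genes marked. *IRX5* and *IRX6* (2 peaks) lie in the bulk of genes, whereas *IRX2* (14) and *IRX4* (33) lie in the tail.

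The strongest SS18::SSX peaks lay outside the gene bodies. At *IRX4*, the peak of highest −log10 q (25.5) was intergenic at chr5:1840123-1841486, its centre 46432 bp downstream of the start site, with 111 fragments at the summit and a fold of 3.85 over the local background. At *IRX2*, the highest peak (−log10 q 17.9, 74 fragments, fold 4.07) lay at chr5:2739842-2741320, 11096 bp downstream of the start site and beyond the end of the gene. At *IRX1* it lay upstream, at chr5:3591066-3591870, 4364 bp from the start site, with 50 fragments (−log10 q 14.8, fold 4.82). The highest peaks of the chromosome 16 genes were much weaker. *IRX5* had one of 20 fragments (−log10 q 5.87) at chr16:54936964-54937158, in an intron of the long noncoding RNA (lncRNA) gene ENSG00000259711. Those of *IRX3* (54244609 to 54244799) and *IRX6* (55322924 to 55323094) had 11 and 13 fragments, with −log10 q of 3.22 and 2.67. The 200 bp around the summits of the strongest peak of each of 4 genes are given on the plus strand of hg38, because these peaks had the highest −log10 q at each gene. Capitals mark CpG dinucleotides.
IRX4, chr5:1840922-1841121: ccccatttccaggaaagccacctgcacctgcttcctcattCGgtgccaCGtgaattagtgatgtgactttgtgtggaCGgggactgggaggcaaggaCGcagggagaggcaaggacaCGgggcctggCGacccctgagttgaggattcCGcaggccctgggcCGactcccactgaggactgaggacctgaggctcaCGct
IRX2, chr5:2740239-2740438: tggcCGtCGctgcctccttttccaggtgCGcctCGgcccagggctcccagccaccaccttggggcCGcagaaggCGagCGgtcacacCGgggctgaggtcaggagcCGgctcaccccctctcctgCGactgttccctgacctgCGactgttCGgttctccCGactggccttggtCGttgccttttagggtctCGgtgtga
IRX1, chr5:3591423-3591622: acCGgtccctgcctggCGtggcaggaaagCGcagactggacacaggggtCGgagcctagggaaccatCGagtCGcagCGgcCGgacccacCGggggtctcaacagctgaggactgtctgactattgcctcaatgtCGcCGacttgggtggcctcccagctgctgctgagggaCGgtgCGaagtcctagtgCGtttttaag
IRX5, chr16:54936968-54937167: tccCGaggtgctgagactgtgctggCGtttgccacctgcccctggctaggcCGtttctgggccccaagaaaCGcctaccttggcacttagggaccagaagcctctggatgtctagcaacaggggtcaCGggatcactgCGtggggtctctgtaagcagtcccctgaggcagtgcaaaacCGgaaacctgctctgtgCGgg
The IRX4 sequence held 9 CpGs at a GC content of 62%, the IRX2 sequence 15 at 67%, the IRX1 sequence 14 at 63%, and the IRX5 sequence 8 at 61%.

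Over all Iroquois SS18::SSX DMSO summits, the 200-bp windows had a median GC content of 62% with 7 CpGs on chromosome 5 and of 57.5% with 3 CpGs on chromosome 16, against 60% and 6 in the whole list. Short motifs were searched on both strands. The CCAAT box was found in 8 of the 60 windows (13.3%, against 18.4% of all SS18::SSX DMSO windows), the GC box GGGCGG in 7 (11.7% against 20.4%), and the E-box CACGTG in 3 (5% against 4.42%). The IRX4 sequence above is one of the 3 windows with the E-box.

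With DMSO, 2 of the 6 Iroquois genes had an SS18::SSX promoter peak (*IRX4* and *IRX6*), against 13.4% of all protein-coding genes. *IRX4* had 2 of them, one of 67 fragments (−log10 q 4.88) at chr5:1883446-1883588 and one of 90 fragments (−log10 q 14.9) at chr5:1887725-1888478, and *IRX6* had one of 12 fragments (−log10 q 2.11) at chr16:55323311-55323647. Of the 60 peaks, 39 were intergenic (65%, against 27.6% of the whole list) and 12 lay in introns (20% against 39.7%). Exons held 2, and 7 lay at a promoter of a protein-coding or lncRNA gene (11.7% against 23.7%). The windows reach 50 kb beyond each Iroquois gene, a limit that the whole list does not have, so these shares depend on the window rule. The centres of the 60 peaks lay within 5 kb of the start site in 17 cases, at 5 to 20 kb in 14, and farther out in 29. WDR5, which is known from active promoters, had a promoter peak at 3 of the 6 genes (*IRX2*, *IRX1*, and *IRX6*), against 43% of all protein-coding genes. The promoter peaks had 23 fragments at *IRX2*, 27 at *IRX1*, and 17 and 14 at *IRX6*, with centres at −641, −855, −861, and −410 bp from the nearest start site. *IRX3* and *IRX5* had no promoter peak of either protein. Just outside the promoter limit, an SS18::SSX peak of 44 fragments lay at −1339 bp from the *IRX2* start site, and an SS18::SSX MS67 peak at −1110 bp from that of *IRX4*.

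Peaks lay beside, and not on, the CpG-dense sequences that could be checked at the start sites. RefSeq (GRCh38.p14) promoter sequences, from 250 bp before to 50 bp after a start, were found for *IRX4* (3 starts), *IRX2*, and *IRX1*, and no peak of the 4 lists overlapped any of these. Their GC content was 63% to 79.7% with 34 to 47 CpGs, against medians of 58.7% and 14 over 35116 promoters. How many of those 35116 promoters overlap a peak was not counted, so whether the lack of overlap is unusual is not known. One sequence each of *IRX4* and *IRX1* is shown 5′ to 3′ in the direction of transcription, because they show the base composition next to which the peaks lay. Capitals again mark CpG dinucleotides.
IRX4 promoter, chr5:1887130-1887429, minus strand: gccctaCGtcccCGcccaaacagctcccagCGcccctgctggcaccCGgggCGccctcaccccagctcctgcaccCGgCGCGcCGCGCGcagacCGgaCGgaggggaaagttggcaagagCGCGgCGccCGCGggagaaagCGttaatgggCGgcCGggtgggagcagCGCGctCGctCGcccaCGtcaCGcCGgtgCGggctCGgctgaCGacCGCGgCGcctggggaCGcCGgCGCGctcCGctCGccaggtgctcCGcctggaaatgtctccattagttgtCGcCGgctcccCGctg
IRX1 promoter, chr5:3595582-3595881, plus strand: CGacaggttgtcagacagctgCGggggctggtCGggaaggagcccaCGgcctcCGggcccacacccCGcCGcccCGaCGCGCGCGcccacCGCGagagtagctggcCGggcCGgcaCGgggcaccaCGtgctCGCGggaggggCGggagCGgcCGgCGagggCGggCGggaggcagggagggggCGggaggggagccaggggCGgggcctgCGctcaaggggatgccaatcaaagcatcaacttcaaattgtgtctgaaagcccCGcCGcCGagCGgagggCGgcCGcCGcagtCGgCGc
The nearest SS18::SSX DMSO peak was 296 bp from this *IRX4* promoter and 2721 bp from the *IRX1* promoter. The nearest WDR5 DMSO peak was 1803 bp from the former and 525 bp from the latter. For *IRX2*, the SS18::SSX distance was 768 bp and the WDR5 distance 299 bp.

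**Figure D3:**
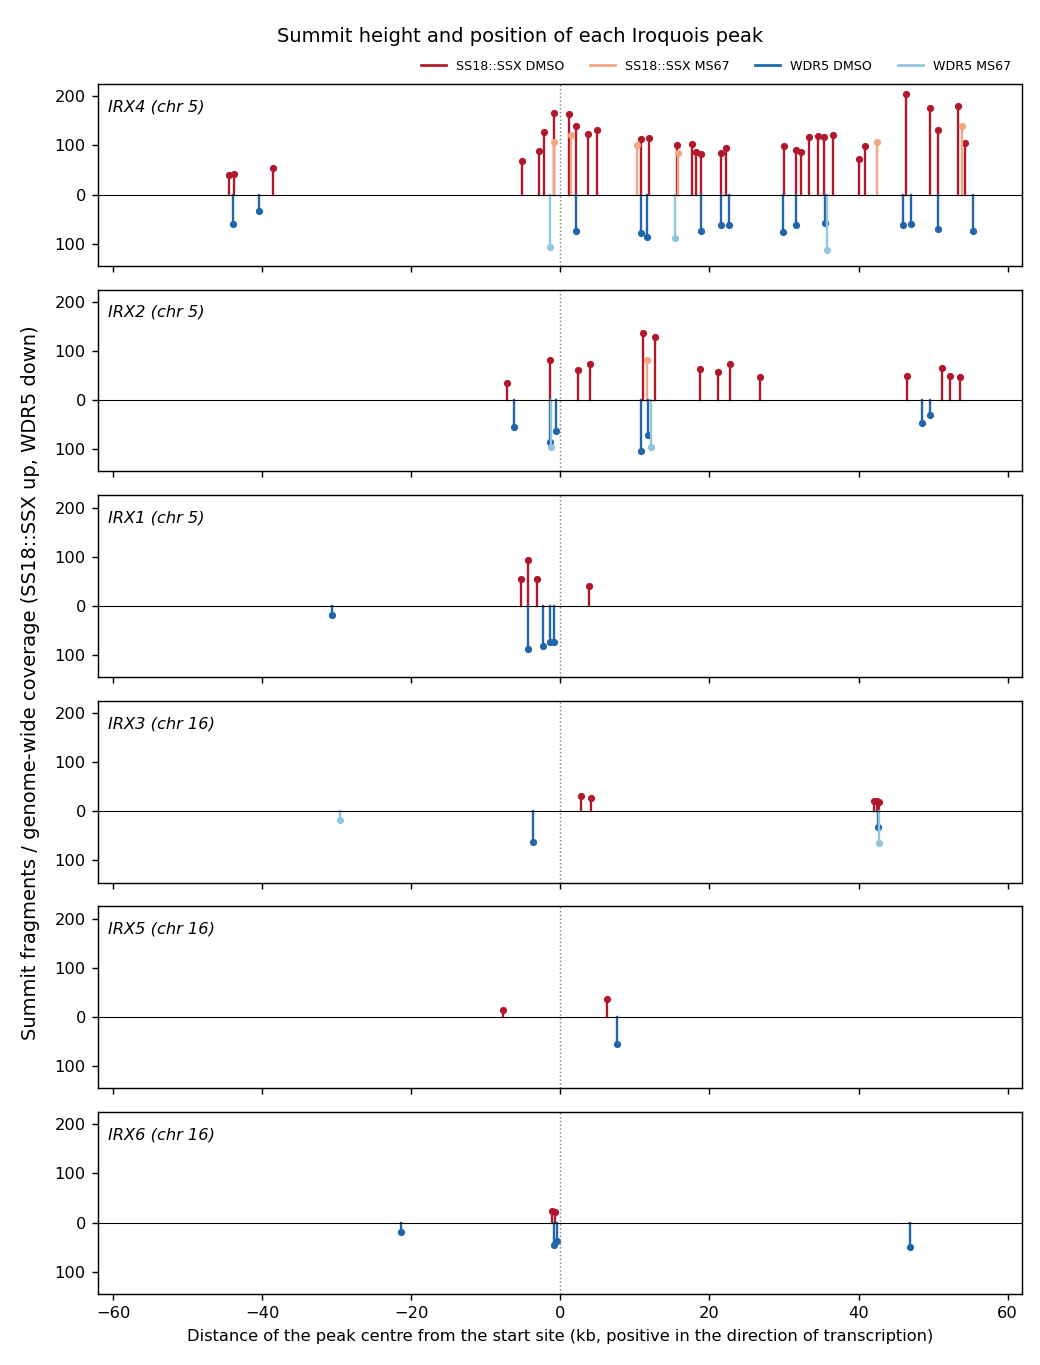
Each stem is 1 peak, placed by the distance of its centre from the outermost start site of the gene (kb, positive in the direction of transcription), with its summit as a multiple of genome-wide coverage, SS18::SSX upward and WDR5 downward; MS67 stems are moved slightly to the right to keep them visible. *IRX4* carries a dense run of SS18::SSX peaks that reaches past its end, whereas the chromosome 16 genes carry few and low peaks.

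Most of the *IRX4* peaks formed 1 run. Joining SS18::SSX DMSO peaks with gaps of up to 10 kb, a limit chosen after the values were seen, gave a stretch of 59779 bp at chr5:1832698-1892476 that held 30 of the 33 peaks. The run reached from upstream of the *IRX4* start sites, through the gene, to well beyond its end. Peaks covered 22.6% of it for SS18::SSX with DMSO, 4.22% for SS18::SSX with MS67, 5.23% for WDR5 with DMSO, and 1.60% for WDR5 with MS67. It holds the lncRNA genes ENSG00000249966 and *LINC02116* downstream and *IRX4-AS1* inside *IRX4*, each with an SS18::SSX promoter peak with DMSO. The lncRNA gene *CTD-2194D22.4*, which also starts in the run, had no such promoter peak. Of the 22 lncRNA genes with a start site in any of the 6 windows, 5 had an SS18::SSX DMSO promoter peak (4.79% of all lncRNA genes had one) and 6 a WDR5 DMSO promoter peak (13.2%) at any of their start sites. None had a promoter peak of either protein with MS67, where 0.313% of all lncRNA genes had one of SS18::SSX, 7.92% one of WDR5, and 8.17% one of either.

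The signal in this run stood on a raised local background in every library. The median background of its peaks was 44.1 times the genome-wide coverage for SS18::SSX with DMSO, 50.8 for SS18::SSX with MS67, 20.9 for WDR5 with DMSO, and 23.6 for WDR5 with MS67. The medians over each whole list were 5.72, 12.2, 4.91, and 4.61. The folds of the run were accordingly low, with a median of 2.45 for SS18::SSX DMSO against 3.99 in its whole list, while its summits had a median of 114 times coverage. Raised background was not limited to *IRX4*. Over peaks in the 4 Mb at the end of chromosome 5, the median per Mb was 12.3 to 22.9 for SS18::SSX with DMSO, against a chromosome median of 6.25, and 6.87 to 17.3 for WDR5 with DMSO, against 4.43. For WDR5 with MS67 it was 6.07 to 11.5, against 4.29. For SS18::SSX with MS67, with 3 to 13 peaks per Mb, it was 13.2 to 25.1, against 13.6. It was thus not raised in the first Mb in that library. No input DNA and no copy number of these cells was analysed here, so more DNA copies of this chromosome end and more signal per copy cannot be told apart. This holds for every comparison of the 2 clusters in number, height, or covered length of peaks.

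The 2 clusters differed in peak number, in height, and in background. On chromosome 5, the summits of the 51 SS18::SSX DMSO peaks held 19 to 111 fragments (median 49), and on chromosome 16 those of the 9 peaks held 8 to 20 (median 12), so the ranges barely met. Background ranged from 9.87 to 64.1 times coverage on chromosome 5 (median 37.2) and from 2.36 to 8.01 on chromosome 16 (median 5.06), with no overlap. The fold over background went the other way, with a median of 2.66 on chromosome 5 and 3.95 on chromosome 16. Peak calling limits this contrast, since a peak of few fragments must reach a higher fold to pass. The lowest fold called was 1.87 on chromosome 5 and 3.34 on chromosome 16. The −log10 q, which also depends on the number of fragments, had a median of 5.14 on chromosome 5 and 2.67 on chromosome 16. Windows of near equal length were compared (321229 and 313659 bp in all), and SS18::SSX DMSO peaks covered 6.91% of those on chromosome 5 and 0.589% of those on chromosome 16, against 0.291% over the windows of all protein-coding genes. The share of the Iroquois SS18::SSX peaks that lay on chromosome 5 was 85% (95% interval, 73.4 to 92.9), and 66.7% without *IRX4*.

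**Figure D4:**
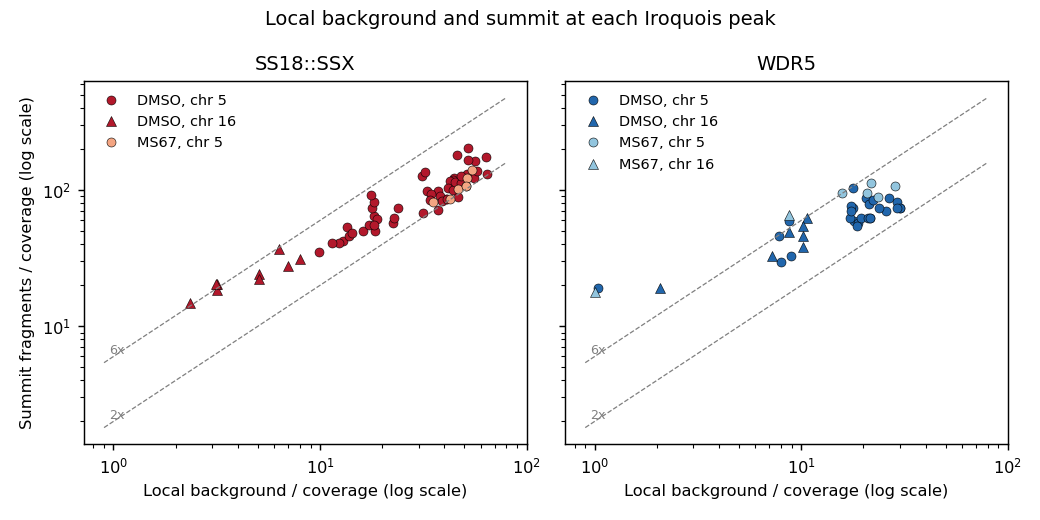
Each point is 1 peak of an Iroquois window, with the local background on the x axis and the summit on the y axis, both as multiples of the library's genome-wide coverage on log axes, and dashed lines mark summits of 2 and 6 times the background. Chromosome 16 SS18::SSX peaks (triangles, background 2.36 to 8.01) sit apart from chromosome 5 peaks (circles, 9.87 to 64.1).

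For WDR5 with DMSO, the share of the Iroquois peaks on chromosome 5 was 79.4% (62.1 to 91.3), close to that of SS18::SSX, and 63.2% without *IRX4*. *IRX4* had 15 WDR5 peaks, *IRX2* had 7, *IRX1* had 5, *IRX6* had 4, *IRX3* had 2, and *IRX5* had 1, and 85.4% of all protein-coding genes had at least 1. The share of genes with fewer WDR5 peaks was 98.5% for *IRX4* and 77.8% for *IRX2*, but 26.7% for *IRX3* and 14.6% for *IRX5*, so the latter pair had no more than an ordinary number. Summits held 7 to 38 fragments on chromosome 5 (median 26) and 7 to 23 on chromosome 16 (median 17), and these ranges overlapped. The strongest of the 34 WDR5 peaks was at *IRX2* (chr5:2740607-2741138, −log10 q 12.6, 38 fragments), inside its strongest SS18::SSX peak. At *IRX3*, the strongest one (chr16:54290225-54290626, −log10 q 7.49, 23 fragments) lay at the promoter of the lncRNA gene ENSG00000277559. At *IRX5* it lay in an exon of the lncRNA gene ENSG00000259725 (−log10 q 5.83, 20 fragments).

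Between the genes, the same contrast continued. From *IRX4* to *IRX1*, a stretch of 1723991 bp, there were 80 SS18::SSX DMSO peaks, or 46.4 per Mb, which is 9.46 times the genome-wide rate of 4.90 per Mb. From *IRX3* to *IRX6*, 1047453 bp, there were 8, or 7.64 per Mb (1.56 times). For WDR5 with DMSO the rates were 26.7 per Mb (2.31 times) and 15.3 per Mb (1.32 times). Of the 80 SS18::SSX peaks, 51 lay outside the 50-kb windows. The density was not limited to the cluster, since the first Mb of chromosome 5, which holds no Iroquois gene, had 62 SS18::SSX DMSO peaks, and the second Mb, which holds *IRX4*, had 117. Both intervals between the genes took part, with 42 peaks from the end of one gene to the next between *IRX4* and *IRX2* and 31 between *IRX2* and *IRX1*.

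A larger share of WDR5 peaks lay on SS18::SSX peaks in the Iroquois windows than in the list at large, a difference that 1 library per protein does not allow to be tested. With DMSO, 19 of the 34 WDR5 peaks overlapped an SS18::SSX peak (55.9%; 37.9 to 72.8), against 13.9% of the whole WDR5 list. The other way round, WDR5 was called on 19 of the 60 SS18::SSX peaks (31.7%; 20.3 to 45.0), near the 33.7% of the whole list. At the thresholds of the study (−log10 q above 3, with a fold above 6 in the WDR5 lists), none of the 34 WDR5 peaks was left, against 17.9% of the whole list, so this overlap and the 3 genes with a WDR5 promoter peak both became 0. The WDR5 overlap came mostly from *IRX4*, where 13 of 15 did so and where SS18::SSX peaks covered 13.6% of the window, and it was 3 of 7 at *IRX2* and 1 of 5 at *IRX1*. By cluster, 17 of 27 WDR5 peaks overlapped on chromosome 5 (63.0%; 42.4 to 80.6) and 2 of 7 on chromosome 16 (28.6%; 3.67 to 71.0), and these intervals overlap. Merging overlapping peaks of the 4 lists gave 78 sites, of which 57 were called in 1 list, 17 in 2, 3 in 3, and 1 in all 4. The site in all 4 lists was the one downstream of *IRX2*, chr5:2739436-2741320, shown in part above. Its SS18::SSX and WDR5 peaks with MS67 did not overlap each other, so no base of it was covered in all 4 lists. The sites in 3 lists were at *IRX4* (chr5:1851456-1852227), in an intron of the divergent lncRNA gene *IRX2-DT* (chr5:2752695-2753338), and 42531 bp downstream of the *IRX3* start site (chr16:54243973-54244540).

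With MS67, most of the SS18::SSX peaks at the Iroquois genes were no longer called. *IRX4* went from 33 to 6 peaks and *IRX2* from 14 to 1. *IRX1* (4), *IRX3* (5), *IRX5* (2), and *IRX6* (2) went to 0. At least 1 SS18::SSX MS67 peak was left at 2 of the 6 genes, against 6.68% of all protein-coding genes, and 4 of the 6 had peaks with DMSO and none with MS67, against 86.5% of the genes with DMSO peaks. Of the 60 peaks, 55 were lost (91.7%; 81.6 to 97.2), which is near the 94.2% of the whole list. On chromosome 5, 46 of 51 were lost (90.2%; 78.6 to 96.7), and on chromosome 16, 9 of 9 (66.4 to 100). The MS67 library was the deeper one, and all 55 lost peaks would pass the smallest −log10 p of the MS67 list if their fragments and background were multiplied by the ratio of coverages (96.7% over the whole list). Scaling up makes nearly every called peak pass, so this says nothing particular about the Iroquois peaks. No Iroquois promoter had an SS18::SSX peak with MS67, where 0.719% of all protein-coding genes had one.

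The 5 SS18::SSX peaks that were called with both treatments, 4 at *IRX4* and 1 at *IRX2*, were lower with MS67 in multiples of coverage. The tallest one, downstream of *IRX4* (chr5:1833357-1834280), held 98 fragments with DMSO and 103 with MS67, which is 181 and 140 times coverage, a ratio of 0.771. The intronic *IRX4* peak (chr5:1885543-1886518) went from 165 to 122 times coverage (0.742), and the peak at the *IRX4* promoter with DMSO (chr5:1887725-1888478), whose MS67 counterpart was centred outside the promoter at −1110 bp, from 166 to 107 (0.644). The peak at chr5:1871436-1871745 went from 99.9 to 85.5 (0.856) and the peak downstream of *IRX2* from 137 to 81.4 (0.595). All 5 ratios were thus below 1, and the whole list had a median of 0.699 over 911 such pairs. The local background at the same 5 sites moved less, with ratios from 0.923 to 1.19. The folds over background were lower as well, for example from 4.07 to 2.26 at *IRX2* and from 3.12 to 2.08 at chr5:1887725-1888478. The other 2 SS18::SSX MS67 peaks, both at *IRX4*, overlapped no DMSO peak but lay within 1 kb of one. The *IRX4* peak of highest −log10 q with DMSO (chr5:1840123-1841486) had no SS18::SSX MS67 peak within 1 kb.

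**Figure D5:**
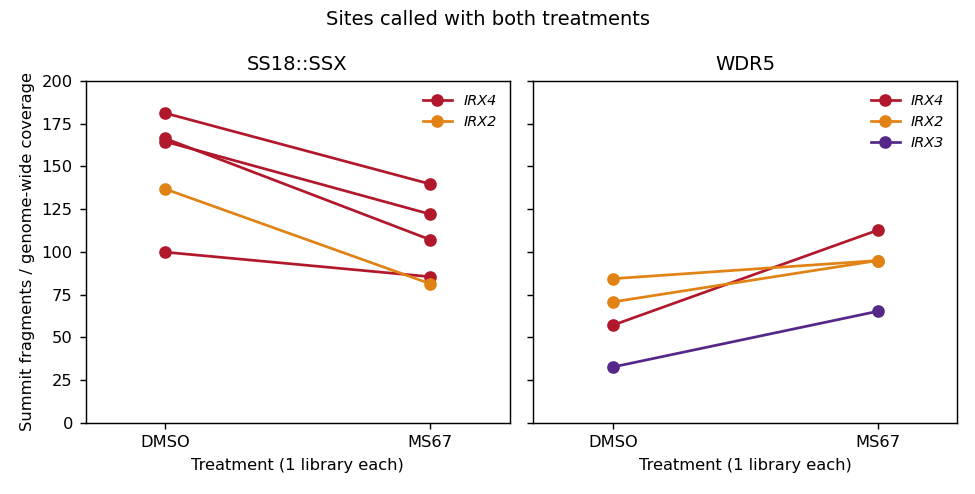
Each line joins the summit of 1 Iroquois site, as a multiple of genome-wide coverage, between the DMSO and the MS67 library (1 library each) for sites called with both treatments. All 5 SS18::SSX lines go down (ratios 0.595 to 0.856) and all 4 WDR5 lines go up (1.13 to 2.00), in sites that had to be called in the shallower WDR5 MS67 library to be shown. Coverage scaling uses no spike-in, so the lines do not measure a change in the amount bound.

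WDR5 itself was called at few Iroquois sites with MS67. *IRX4* went from 15 to 3 peaks, *IRX2* from 7 to 2, and *IRX3* had 2 with either treatment. *IRX1* (5), *IRX5* (1), and *IRX6* (4) went to 0. A WDR5 MS67 peak was thus left at 3 of the 6 genes, against 70.6% of all protein-coding genes. In 3 of the 6, WDR5 peaks were present with DMSO and absent with MS67, against 18.8% of the genes with DMSO peaks. Neither 70.6% nor 18.8% allows for window length, which follows gene length. As a share of window length, WDR5 MS67 peaks covered 0.296% at the Iroquois genes and 0.330% over all protein-coding genes. Of the 34 WDR5 peaks, 30 were lost (88.2%; 72.5 to 96.7), against 75% of the whole list, and no Iroquois gene had a WDR5 promoter peak with MS67, where 27.7% of all protein-coding genes had one. Depth limits this comparison, since the WDR5 MS67 library had 0.458 times the coverage of its control, and only 12 of the 30 lost peaks (40%) would still pass if scaled to it, near the 36.3% of the whole list.

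The 4 WDR5 peaks called with both treatments held fewer fragments with MS67, although their heights in multiples of coverage were greater. The site at chr5:1851666-1851921 downstream of *IRX4* had 21 fragments with DMSO and 19 with MS67 (57.1 and 113 times coverage), and the site downstream of *IRX3* had 12 and 11 (32.6 and 65.3). Both *IRX2* sites had 16 fragments with MS67, after 26 and 31 with DMSO. The ratios ran from 1.13 to 2.00, and the whole list had a median of 1.26 over 9293 pairs. These sites had to pass the threshold in the shallower library. Without spike-in scaling, the ratios do not show that WDR5 was kept or rose at them. After such scaling, the paper reported lower overall WDR5 binding with MS67. The remaining 3 of the 7 WDR5 MS67 peaks were more than 1 kb from any WDR5 peak of the control list and held 15 and 18 fragments at *IRX4* and 3 at *IRX3*. With MS67, none of the 7 SS18::SSX and none of the 7 WDR5 peaks overlapped a peak of the other protein (0 of 7, upper limit 41.0%), where 10.6% and 0.942% of the whole lists did.

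A set of 11 other TALE homeobox genes (*PBX2* to *PBX4*, *MEIS1* to *MEIS3*, *PKNOX1* and *PKNOX2*, *TGIF1* and *TGIF2*, and *MKX*) had a different balance of the 2 proteins. They encode cofactors of HOX proteins, transcriptional repressors, and, with *MKX*, a regulator of tendon. With DMSO, their windows held 26 SS18::SSX and 77 WDR5 peaks, with medians of 1 and 7 per gene, where the Iroquois genes had medians of 4.5 and 4.5. These counts do not allow for window length, which reached 368703 bp in this set (*PKNOX2*) and 109824 bp at the Iroquois genes (*IRX4*). As a share of window length, WDR5 DMSO peaks covered 1.28% in this set and 1.85% at the Iroquois genes. SS18::SSX DMSO peaks covered 0.325% and 3.79%. The Iroquois medians were 14 and 7 on chromosome 5 and 2 and 2 on chromosome 16, so 4.5 describes neither cluster. All 11 had a WDR5 promoter peak, and 2 (*TGIF1* and *MKX*) had an SS18::SSX promoter peak. *PBX3* had the most SS18::SSX peaks, 12 with DMSO and 0 with MS67. *MEIS1* went from 3 to 1 and *MKX* from 3 to 0. Of the 77 WDR5 peaks of this set, 7 overlapped SS18::SSX (9.09%; 3.73 to 17.8), below the interval of the Iroquois windows. *IRX4* gave 13 of the 19 overlapping WDR5 peaks of those windows. Of the 26 SS18::SSX peaks of the set, 8 overlapped WDR5 (30.8%), near the 31.7% of the Iroquois windows. With MS67, 60 of the 77 WDR5 peaks were lost (77.9%; 67.0 to 86.6). With MS67, 5 of the 11 still had a WDR5 promoter peak.

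By the length covered by peaks in the 4 lists, the genes more than 1 Mb away that were most like the mean of the 6 Iroquois genes were *ONECUT1*, *NR2E1*, *EPAS1*, *ECEL1*, and *ACTR5*. Likeness was the Euclidean distance between log2(covered bp + 100) values over the 4 lists, and it was 0.716 for *ONECUT1* and 0.898 for *ACTR5*. For *ONECUT1*, a homeobox gene of liver and pancreas, the covered lengths of SS18::SSX were 2283 bp with DMSO and 233 bp with MS67, and those of WDR5 were 1366 bp and 153 bp. The Iroquois genes were themselves farther from their mean, from 1.78 for *IRX1* to 5.40 for *IRX4*, so the mean describes none of them well.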

How the data were processed

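CUT&RUN for SS18::SSX and WDR5 was done in HSSY II cells with DMSO or MS67, with 1 library per condition. The authors aligned reads to hg38, removed duplicates, and called peaks with MACS2, with 1 list per library. Per the labels, the processing also used SAMtools (1.9), bedtools (2.28.0), and Picard. MACS2 options and the use of a control library were not given in the sources used here, so the origin of the local background is not known. For each peak the authors deposited a fold enrichment (a ratio to the local background), a −log10 p, a −log10 q, and a score. The deposited score was not used. The smallest −log10 q was 1.30 to 1.35.

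MACS2 computes the fold as (summit pileup + 1) over (background + 1) and p as the Poisson tail, so both counts were solved for. Whole-number pileups matched 100% of peaks within 0.001 in −log10 p, and the step was tested on simulated data. The lowest background of a list was taken as its coverage. Peaks overlapped if they shared at least 1 bp. Gene positions were those of GENCODE 44. The named genes were the 6 Iroquois genes, lncRNA genes in their windows or at named peaks, other TALE genes with an SS18::SSX promoter peak or the most SS18::SSX peaks, and the 5 genes of most similar pattern. Results for 1 other TALE gene were left out. The members and lists were chosen with earlier results of these data known. Other windows (10 and 100 kb), promoters, overlaps, merged peaks, and thresholds were tried as alternatives. Python 3.11.15, numpy 2.4.6, scipy 1.17.1, pysam 0.24.0, and matplotlib 3.10.9 were used.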

Additional observations from a re-analysis of the deposited data

How the results depend on the processing

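Over 13 results and 55 alternative values, 33 were classed as unchanged and 22 as moved. The unchanged class was broad. It held 47 WDR5 DMSO peaks within 100 kb and 25 when peaks within 1 kb were merged, in place of 34. Counts and shares have no direction, so no result could reverse. Numbers of peaks followed the window and the thresholds. SS18::SSX DMSO peaks (60) numbered 30 within 10 kb, 36 when peaks within 1 kb were merged, 27 without *IRX4*, and 18 at the thresholds of the study (−log10 q above 3, with a fold above 3 in the SS18::SSX lists and above 6 in the WDR5 lists), where 54.7% of the whole list passed. WDR5 DMSO peaks (34) numbered 17 within 10 kb, 19 without *IRX4*, and 0 at the thresholds, where 17.9% of the whole list passed. SS18::SSX MS67 peaks (7) numbered 0 at the thresholds and 1 without *IRX4*. WDR5 MS67 peaks (7) numbered 4 within 10 kb, 12 within 100 kb, 0 at the thresholds, and 4 without *IRX4*. The setting without *IRX4* was chosen after seeing the data.

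Genes with a promoter peak numbered 1 in place of 2 for SS18::SSX DMSO and 0 in place of 3 for WDR5 DMSO at the thresholds. With a promoter that ran from 2000 bp upstream to 500 bp downstream, there was 1 gene for SS18::SSX MS67 and 2 for WDR5 MS67, and with any overlap 1 for SS18::SSX MS67, in place of 0. The SS18::SSX loss (91.7%) was 100% at the thresholds, a value fixed in advance because no SS18::SSX MS67 peak was left there. The SS18::SSX overlap with WDR5 (31.7%) was 55% with WDR5 within 1 kb. It was 0% at the thresholds, again fixed because no WDR5 peak was left. The chromosome 5 share of SS18::SSX peaks (85%) was 66.7% without *IRX4*. At the thresholds no Iroquois WDR5 peak was left, so WDR5 loss and cluster share had no value. No paired analysis was possible because every group had 1 library.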
